A study of Mus musculus with 3 samples.

Results

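A set of 6 genes of the TREM (triggering receptor expressed on myeloid cells) receptor axis was read in chromatin-bound RNA of mouse macrophages. They were the receptors Trem1, Trem2, Trem3 and Treml4, their signalling adapter Tyrobp, and the phospholipase gene Plcg2. The members were chosen by gene symbol, and all 6 were found among 55536 annotated genes, of which 22028 were protein coding. The cells were bone-marrow-derived macrophages of strain C57BL/6J. They had been exposed to Lipid A, the part of lipopolysaccharide that Toll-like receptor 4 senses, at 100 ng/ml for 12 h. After 12 h of washout they received Lipid A again at 100 ng/ml for 60 min. The 3 libraries, replicates 1, 2 and 3, formed 1 group that shared this schedule, and no untreated or singly dosed library was analysed here. Every value below is therefore a level in twice-dosed cells and not a response to Lipid A. The labels do not say whether the replicates came from separate animals or cultures, so the spread between them may be partly technical.

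The receptors TREM1, TREM2 and TREM3 sit on the surface of myeloid cells and have short tails with no signalling motif. They pair with the adapter DAP12, the product of Tyrobp, whose tail holds a tyrosine motif that recruits the kinase Syk. Syk then acts on scaffolds and on phospholipase C gamma 2, the product of Plcg2, which produces the second messengers that release calcium. TREM1 is known for amplifying inflammatory signals in neutrophils and monocytes. TREM2 is known for sensing lipids and lipoproteins and for supporting phagocytosis in macrophages and microglia. RNA on chromatin is made up of nascent transcripts and of finished ones that remain attached, and much of it is unspliced.

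Starting from 1000, 250 and 500 ng of RNA, replicates 1, 2 and 3 gave 12602702, 17222239 and 17042691 gene counts. All 8 macrophage markers had at least 10 TPM (a length-scaled transcript abundance) in every library, beside 16.7% of all protein-coding genes. They were led by Adgre1 at 441 ± 140 TPM (SD, n = 3), so the labelled cell type was matched by its markers. Replicate 2 stood apart in RNA of another cell type. The 8 fibroblast and stromal markers summed to 610.7 TPM there, with Col1a1 highest at 223.8 TPM, against 0.04 TPM in replicate 1 and 2.18 TPM in replicate 3. Of these 8 markers, 7 were at 0 counts in replicate 1 and 3 in replicate 3. The part of this RNA in the results below was not tested, and member levels are also given without replicate 2.

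Trem2 has 4 annotated isoforms that differ at a few junctions, and the isoform results below turn on them. The stretches at these junctions are shown because they tell the spliced models of Trem2 from the one that keeps an intron. The tables give isoform estimates and no junction reads. Each runs 5′ to 3′ on the + strand of mm10 (GRCm38) chromosome 17, with the last 15 bases before the boundary in lower case and the first 15 bases after it in capitals.
Trem2-201, exon 1 spliced to exon 2: tgctgctgatcacagCCCTGTCCCAAGCCC
Trem2-203, exon 1 running on into intron 1: tgctgctgatcacagGTGGGACCACAGGAG
Trem2-201, exon 3 spliced to exon 4: acacagcacctccagGAATCAAGAGACCTC
Trem2-202, exon 3 spliced to its longer exon 4: acacagcacctccagGCAGGTTTCATCCTG
Trem2-204, exon 2 spliced to its last exon: tggaggtgctggaggTGCTGAAGTCACCAT
The first pair share the end of exon 1 and part after it, where Trem2-203 keeps intron 1 (48346596 to 48348456, 1861 bases). The next pair share the end of exon 3 and part at exon 4, which begins 55 bases earlier in Trem2-202 (48351691 to 48351745).

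Tyrobp, Plcg2 and Trem2 each had over 10 TPM on chromatin, while Treml4 and Trem1 were near 0 and Trem3 had no count. Thus 3 of 6 members had at least 10 TPM in every library, where 16.7% of all protein-coding genes did. The same 3 of 6 had at least 1 TPM in every library, where 38.9% of protein-coding genes did. These are descriptions of a short list that was picked by name, and nothing particular to it is read from them. In bulk RNA such as this, fewer cells of a type and less RNA per cell cannot be told apart. In order of mean TPM the members ran Tyrobp, Plcg2, Trem2, Treml4, Trem1 and Trem3.

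Tyrobp, the adapter, had the highest mean level of the 6, a place that rests on replicate 2, since Plcg2 was higher in replicates 1 and 3. The gene (ENSMUSG00000030579.10) lies on mm10 chromosome 7, 30413760 to 30417585, + strand, and spans 3826 bases. It had 23.6, 48.9 and 19.8 TPM in replicates 1, 2 and 3, a mean of 30.8 ± 15.8 TPM (SD, n = 3), from 152, 206 and 93 expected counts. Replicate 2 lay far above the other libraries, which were close to each other, and without it the mean was 21.7 TPM. The uncertainty bounds that the authors deposited, whose level is not stated, were 19.3 to 26.6 TPM in replicate 1, 39.1 to 51.6 TPM in replicate 2 and 14.9 to 22.5 TPM in replicate 3. Replicate 2 thus lay outside the bounds of the other libraries. By mean TPM, Tyrobp ranked 2089 of 22028 protein-coding genes.

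Plcg2 (ENSMUSG00000034330.10, chromosome 8, 117498291 to 117635142, + strand) had 26.0, 29.1 and 19.9 TPM in replicates 1, 2 and 3, a mean of 25.0 ± 4.70 TPM (SD, n = 3). Its 1569, 1558 and 1146 counts were the most of any member, and without replicate 2 its mean was 22.9 TPM. It was the steadiest of the 3 transcribed members in TPM, with a coefficient of variation of 18.8%, against 51.4% for Tyrobp and 43.1% for Trem2. The median over the 8576 protein-coding genes with at least 1 TPM in every library was 31.7%. In CPM (counts scaled to the library total) with TMM factors, which make no use of gene length, the order differed, at 28.1% for Plcg2, 31.6% for Tyrobp and 18.6% for Trem2. The gene spans 136852 bases with 33 exons in 1 annotated transcript, and 3.14% of its body lies in that transcript. RNA from its introns is therefore outside the model that was counted. The models of Trem2 cover 63.8% of its body and include intron 1, kept in Trem2-203. Those of Tyrobp cover 17.4%, with no retained-intron isoform annotated.

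Trem2 (ENSMUSG00000023992.14, chromosome 17, 48346401 to 48354147, + strand) was the only one of the 4 receptors above 1 TPM. It had 13.7, 26.3 and 12.8 TPM in replicates 1, 2 and 3, a mean of 17.6 ± 7.59 TPM (SD, n = 3), from 305, 623 and 351 counts. Replicate 2 was again the highest and the other libraries were near each other, and without it the mean was 13.2 TPM. Trem2 ranked 3213 among protein-coding genes.

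Trem1 (ENSMUSG00000042265.13, chromosome 17, 48232768 to 48246924, + strand) had 3, 3 and 4 counts, or 0.07, 0.08 and 0.10 TPM. The exact 95% Poisson intervals of those counts were 0.619 to 8.77, 0.619 to 8.77 and 1.09 to 10.2, so the libraries could not be told apart. Treml4 (ENSMUSG00000051682.15, chromosome 17, 48264295 to 48275360, + strand), a receptor reported in mouse macrophages and dendritic cells, had 5, 2 and 1 counts, or 0.26, 0.10 and 0.16 TPM. The deposited bounds of Treml4 were 0.39 to 1.61, 0.28 to 1.71 and 0.25 to 1.57 TPM in replicates 1, 2 and 3. Each estimate lay below its own bounds, which reached past 1 TPM. Trem3 (ENSMUSG00000041754.5, chromosome 17, 48247777 to 48258841, + strand), an activating receptor in mouse, had 0 counts in every library. A working limit for Trem3 was set at 3 counts in each library, or 0.244, 0.311 and 0.283 TPM in replicates 1, 2 and 3. A count of 0 allows slightly more, up to 3.69 counts by the exact 95% Poisson interval. Against the 3-count limit the Trem2 estimate was 56.0-fold, 84.6-fold and 45.2-fold higher in replicates 1, 2 and 3. Trem3 was the 1 member with at most 3 counts in every library, a state shared by 37.2% of protein-coding genes. The Poisson intervals and the 3-count limits cover counting error only.

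**Figure D1:**
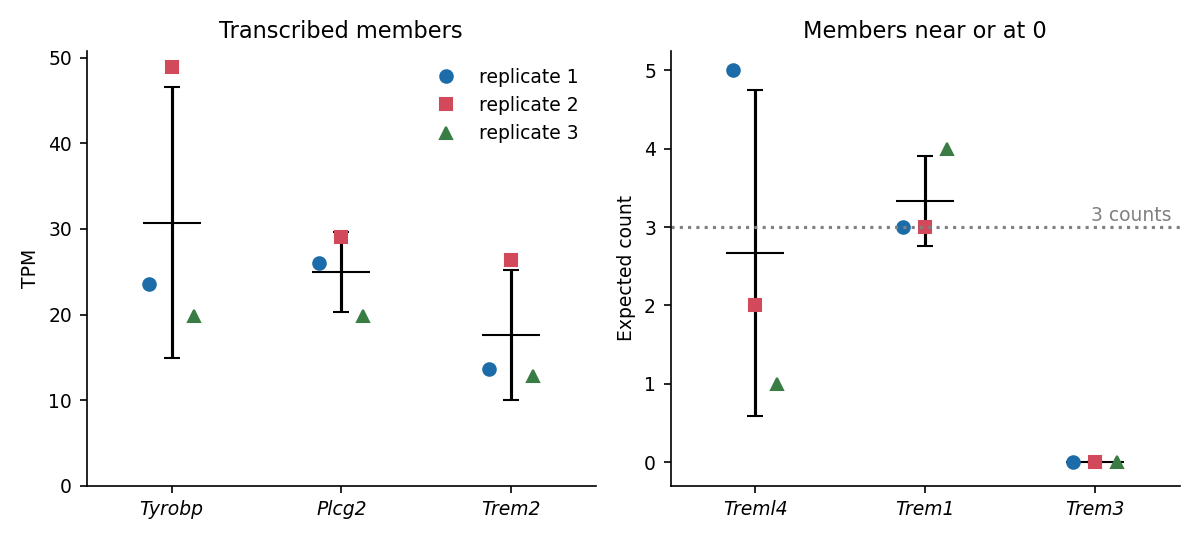
Left, TPM of Tyrobp, Plcg2 and Trem2; right, expected counts of Treml4, Trem1 and Trem3, with a dotted line at 3 counts. Each point is 1 library, the short horizontal line is the mean and the vertical bar the SD over 3 libraries; replicate 2 is highest for Tyrobp at 48.9 TPM and for Trem2 at 26.3 TPM, and Trem3 is at 0 in all 3.

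Within each library the transcribed members were set against each other as differences in log2(TPM + 1), a scale on which low genes differ less because 1 is added to each value. Tyrobp minus Trem2 was 0.74, 0.87 and 0.60 in replicates 1, 2 and 3, a mean of 0.74 ± 0.14 (SD, n = 3), with Tyrobp higher in 3 of 3. Trem2 minus Plcg2 was −0.88, −0.14 and −0.60, a mean of −0.54 ± 0.38, with Trem2 lower in 3 of 3. Tyrobp minus Plcg2 was −0.14, 0.73 and −0.00, a mean of 0.20 ± 0.47, so these neighbours in the order did not differ beyond their spread. Trem2 minus Trem1 was 4.03 ± 0.55 and Trem2 minus Treml4 was 3.92 ± 0.62, each with Trem2 higher in 3 of 3. Trem1 minus Treml4 was −0.11 ± 0.11 and rests on at most 5 counts per library. Exact two-sided sign flips over the 3 libraries, run for 15 pairs, gave p = 0.25 for each pair except Tyrobp and Plcg2 (p = 1). The value 0.25 is the smallest that 3 libraries allow, and the Benjamini-Hochberg adjusted p was 0.268, so no pair could pass 0.05.

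The ratio of Tyrobp to Trem2 in TPM was 1.72, 1.86 and 1.55 in replicates 1, 2 and 3. On this scale both genes were higher in replicate 2, and their ratio moved little. It moved more in expected counts, which were 152, 206 and 93 for Tyrobp and 305, 623 and 351 for Trem2. The ratio of Tyrobp to Plcg2 was 0.905, 1.68 and 0.997. Adapter and phospholipase were thus close in replicates 1 and 3 and apart in replicate 2. In the second set of tables that the authors deposited, made in the layout of kallisto, the Tyrobp to Trem2 ratio was 2.98, 2.99 and 3.01 and the Tyrobp to Plcg2 ratio 1.75, 2.26 and 2.05. There Tyrobp was above Plcg2 in 3 of 3 libraries, with a log2 difference of 0.98 and an exact two-sided sign-flip p of 0.25.

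How far replicate 2 stood out depended on the scale. On the log2 scale, Tyrobp was 1.17 above the mean of the other libraries in TPM, Trem2 0.99 and Plcg2 0.34, beside a median of 0.55 over the 8576 protein-coding genes. In TMM-scaled CPM the median was −0.03. Trem2 was then 0.44 above and Tyrobp 0.23 above, while Plcg2 was −0.31, below the other libraries. Tyrobp had 12.0, 10.6 and 6.18 CPM in replicates 1, 2 and 3, with replicate 1 highest. Trem2 had 24.0, 32.2 and 23.3 CPM, with replicate 2 highest on either scale. Plcg2 had 124, 80.5 and 76.2 CPM, with replicate 1 highest.

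The effective length that divides the counts differed between libraries. For Plcg2 it fell short of the annotated 4298 bases by 148, 269 and 250 bases in replicates 1, 2 and 3. Tyrobp transcripts are short, at 564 to 597 bases, and the gene's effective length was 444, 317 and 329 bases. Tyrobp's TPM therefore carries a larger length term in replicates 2 and 3 than in replicate 1. The part of this term, and of the lower starting amount of RNA in replicate 2, in the height of Tyrobp there was not tested.

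**Figure D2:**
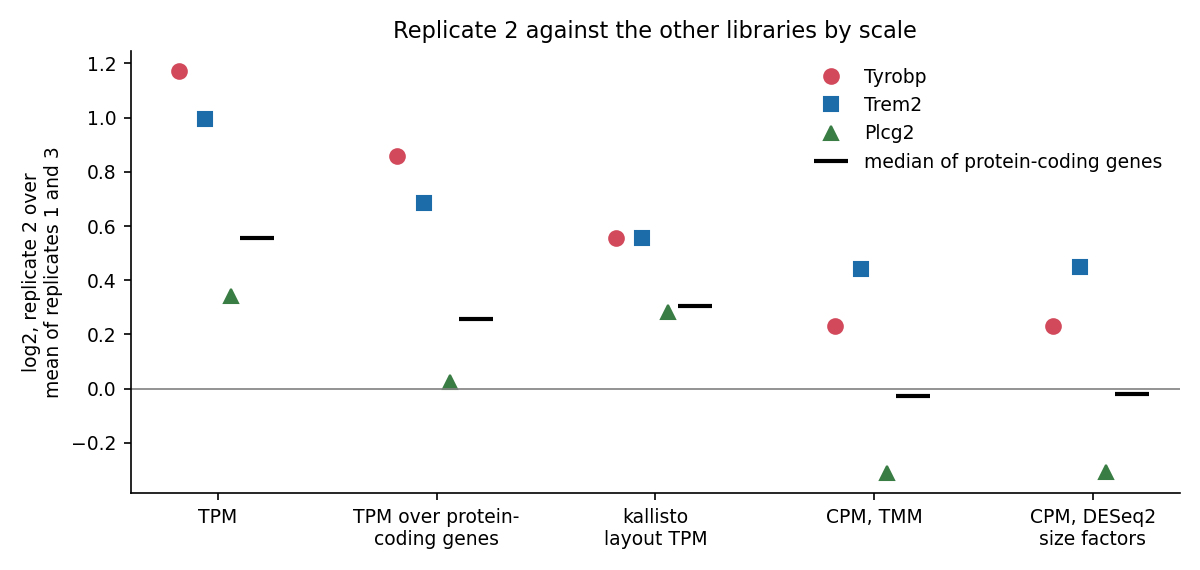
Log2 of replicate 2 over the mean of replicates 1 and 3 (vertical axis) on 5 scales (horizontal axis) for Tyrobp, Trem2 and Plcg2, with black bars for the median of 8576 protein-coding genes. Tyrobp is at 1.17 in TPM and 0.23 in TMM-scaled CPM, Trem2 stays between 0.44 and 0.99, and Plcg2 is below 0 on both CPM scales.

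A retained-intron isoform took most Trem2 reads, and its share of Trem2 TPM depended on the quantification. The isoform, Trem2-203 (4784 bases), keeps intron 1 and also runs 1874 bases past the end of Trem2-201 (48352274 to 48354147), so its reads need not come from the intron. In the tables of RSEM layout it had 3.12, 6.89 and 3.79 TPM in replicates 1, 2 and 3. These were 22.8, 26.2 and 29.7% of Trem2 TPM but 68.8, 66.4 and 69.7% of Trem2 counts, since the isoform is the longest. In the tables of kallisto layout it had 13.7, 11.4 and 9.02 TPM, or 85.1, 54.4 and 72.3% of Trem2 TPM. It held most Trem2 reads in every library of both sets of tables.

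The protein-coding isoforms of Trem2 together had 4.58, 19.4 and 8.98 TPM in the RSEM layout and 0.187, 7.26 and 2.53 TPM in the kallisto layout. Replicate 2 was highest and replicate 1 lowest in each. Trem2-201 (1088 bases) had 4.58, 13.1 and 6.68 TPM in the RSEM layout, and 0, 2.63 and 1.10 TPM in the kallisto layout. Trem2-202, with the longer exon 4, had 0, 6.36 and 2.30 TPM in the RSEM layout, and 0.187, 4.63 and 1.43 TPM in the kallisto layout. Trem2-202 was thus lowest in replicate 1 and highest in replicate 2 by either quantification. Trem2-204 (526 bases), a processed transcript whose 68-base last exon lies in intron 2, was at 5.98, 0 and 0 TPM in the RSEM layout. Its deposited bounds overlapped between libraries, at 2.09 to 8.58 TPM in replicate 1, up to 4.47 TPM in replicate 2 and up to 3.68 TPM in replicate 3. In the kallisto layout the same isoform had 2.21, 2.32 and 0.927 TPM.

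The balance of the isoform classes was tested with limma over all 4311 genes that have both classes and a summed mean of at least 5 TPM. For Trem2 the log2 ratio of retained-intron over protein-coding isoforms was −1.08 (SE 0.27, limma adjusted p = 0.0305), which places more TPM in the protein-coding class. Genes called in that direction were 25.6% of those tested, and genes called towards the retained-intron class were 24.3%, so such a call is common here. The direction did not hold across quantifications. In the kallisto layout the ratio was 2.68 (SE 0.99, limma adjusted p = 0.068), and on expected counts, which are not per length, it was 1.31 (SE 0.24, limma adjusted p = 0.0108). Without replicate 2 the ratio was −0.88 with a limma adjusted p of 0.0906, and without replicate 3 it was −1.01 with 0.142, so either omission ended the call. Trem2 was the 1 member in this test. Treml4 has both classes but a summed mean of 0.173 TPM, and the other members have no retained-intron isoform annotated.

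The isoforms of Tyrobp were nearly alike. Tyrobp-202 begins 28 bases before Tyrobp-201 and ends 5 bases after it, and these protein-coding models are otherwise the same. Tyrobp-202 had 20.3, 30.6 and 8.46 TPM and Tyrobp-201 had 3.02, 18.3 and 11.4 TPM in replicates 1, 2 and 3, in the RSEM layout. The deposited bounds of Tyrobp-201 in replicate 1 ran up to 11.7 TPM and those of Tyrobp-202 in the same library were 10.2 to 23.2 TPM, so the split between them is poorly fixed. Tyrobp-203, which carries an extra exon of 67 bases and is annotated as a target of nonsense-mediated decay, was at 0.27, 0 and 0 TPM, against 3.16, 4.86 and 1.04 TPM in the kallisto layout. Its share of Tyrobp TPM in the kallisto layout was 6.60, 7.73 and 2.76%, so nearly all Tyrobp TPM was assigned to protein-coding models in both sets. RNA outside the annotated models, which cover 17.4% of the gene body, is not part of these shares.

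**Figure D3:**
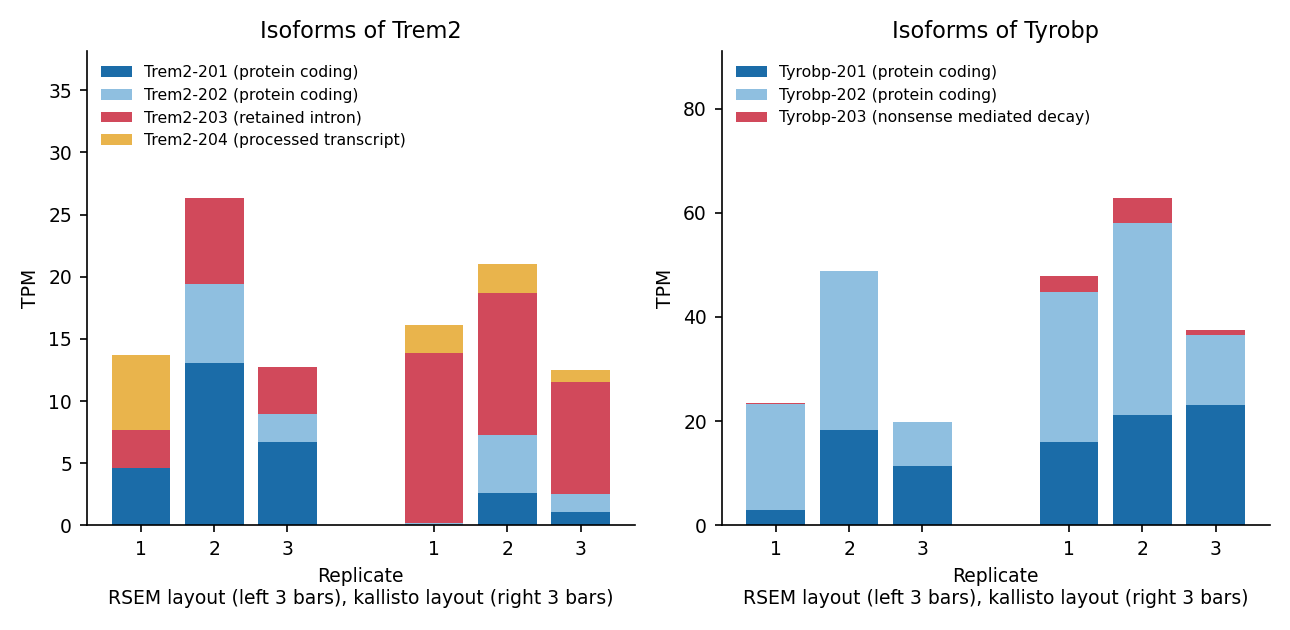
Stacked TPM (vertical axis) of the annotated isoforms of Trem2 (left) and Tyrobp (right) in replicates 1, 2 and 3 (horizontal axis), from the RSEM-layout tables (left 3 bars of each panel) and the kallisto-layout tables (right 3 bars). Red marks Trem2-203, the retained-intron isoform, at 3.12 to 6.89 TPM in the RSEM layout and 9.02 to 13.7 TPM in the kallisto layout; the bars for Tyrobp are mostly its 2 protein-coding isoforms.

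The kallisto-layout tables also assigned more reads to these genes. Their counts of Trem2 were 4.01, 2.33 and 2.94 times the RSEM-layout counts in replicates 1, 2 and 3, and those of Tyrobp 2.63, 2.77 and 3.44 times. Over all genes the factor was 1.55, 1.78 and 1.74, and for Plcg2 it was 1.38, 1.79 and 1.54. Trem2 and Tyrobp thus stood above the factor for all genes in every library, and Plcg2 was near it or below. In TPM the kallisto layout put Tyrobp at 49.4 ± 12.7, Plcg2 at 24.5 ± 5.39 and Trem2 at 16.5 ± 4.28 TPM (SD, n = 3), so Tyrobp alone of these moved by more than its spread between libraries.

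The TREM receptors lie together on chromosome 17 in a cluster of 134409 bases (48232768 to 48367176). It holds 8 annotated genes, 7 of them protein coding and on the + strand, in the order Trem1, Trem3, Treml4, Treml2, B430306N03Rik, Trem2 and Treml1. The 4 genes from Treml2 onward had at least 1 TPM in every library, and the 3 before them did not. Treml2, which encodes a TREM-like receptor of lymphoid and myeloid cells, had 3.73, 3.27 and 2.27 TPM, from 180, 138 and 111 counts. B430306N03Rik had 9.99, 11.9 and 3.15 TPM. Treml1, known from platelets and megakaryocytes, had 1.71, 3.55 and 2.64 TPM, from 27, 40 and 37 counts. Trem2 was the highest gene of the cluster in every library. The pseudogene AC241601.2 lies inside Trem1 on the other strand and had 0, 3 and 0 counts. The strand setting of the counting is not given in the sources used here, so reads of this pair could be shared. The gene beyond Treml1, Nfya, a subunit gene of the CCAAT-binding factor NF-Y, had 93.4 ± 0.26 TPM and lies 32737 bases from Trem2.

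**Figure D4:**
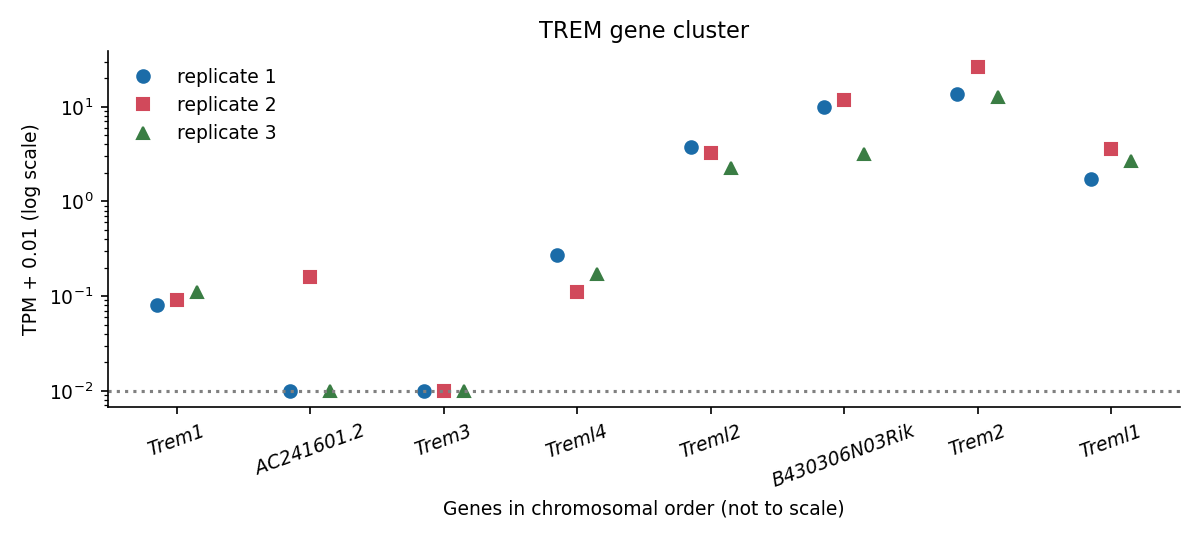
TPM + 0.01 on a log scale (vertical axis) for the 8 genes of the TREM cluster in chromosomal order, evenly spaced (horizontal axis), with 1 point per library and a dotted line for genes at 0. Trem1, Trem3 and Treml4 lie below 1 TPM and Treml2, B430306N03Rik, Trem2 and Treml1 above it, with Trem2 highest.

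Tyrobp has a neighbour of related function. Hcst, which encodes the adapter DAP10, lies 126 bases beyond the end of Tyrobp on the opposite strand, so that the genes meet tail to tail without overlap. It had 1.75 ± 0.60 TPM (SD, n = 3), from 9, 4 and 3 counts, and 9.06 TPM in the kallisto layout. Nfkbid, which encodes a nuclear IκB protein, lies 4146 bases from Tyrobp on the same strand and had 56.4 ± 5.72 TPM. Near Plcg2, Cmip had 34.5 ± 2.39 TPM and Sdr42e1 0.60 ± 0.35 TPM.

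Promoter sequences of Trem2 and Trem1 are shown because these genes of one cluster stood far apart in level. They are from RefSeq (GRCm38.p6), where 4 of 6 members matched, and hold 250 bases before and 50 bases after the gene's start, 5′ to 3′ on the + strand. The Trem2 window is chr17:48346151-48346450 and the Trem1 window is chr17:48232489-48232788. Capitals mark the letters GAGGAA on either strand (TTCCTC on the other), which form the core of sites for the macrophage factor PU.1.
Trem2: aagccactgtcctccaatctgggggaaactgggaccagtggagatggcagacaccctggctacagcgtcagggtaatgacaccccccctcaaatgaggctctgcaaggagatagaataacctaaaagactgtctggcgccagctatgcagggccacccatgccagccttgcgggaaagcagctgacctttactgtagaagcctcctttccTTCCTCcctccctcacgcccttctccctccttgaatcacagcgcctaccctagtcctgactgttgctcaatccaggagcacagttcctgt
Trem1: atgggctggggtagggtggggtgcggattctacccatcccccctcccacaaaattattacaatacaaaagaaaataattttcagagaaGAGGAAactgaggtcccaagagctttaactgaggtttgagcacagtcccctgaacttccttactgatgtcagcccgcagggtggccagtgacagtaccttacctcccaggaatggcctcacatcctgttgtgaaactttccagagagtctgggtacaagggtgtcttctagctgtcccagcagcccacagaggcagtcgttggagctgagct
The motif begins 40 bases before the start in Trem2 and 162 bases before it in Trem1. Treml4 holds it at 2 positions, 178 and 87 bases before its start, and Plcg2 does not hold it. It occurs in 28.3% of all 32851 promoters of this length. TGANTCA, a loose form of the AP-1 site in which any base may stand in the middle, was searched on both strands. It occurs once in the Trem2 window, as TGAATCA, 9 bases before the start. This loose form occurs in 7.81% of all promoters. TATAAA (13.6% of promoters) and the kappaB motif (8.46%) were found on neither strand in the 4 matched windows. A match describes letters in a window and is not a measured site.

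Genes listed around the DAP12 signal were mostly present on chromatin. The list mixes genes that pass the signal on with genes that restrain it, such as Inpp5d and Ptpn6, and holds the adapter gene Hcst. Of 32 signalling partners, 30 had at least 1 TPM and 23 at least 10 TPM in every library, beside 38.9 and 16.7% of all protein-coding genes. Their median was 43.9, 48.7 and 39.2 TPM in replicates 1, 2 and 3. Over all protein-coding genes the median of mean TPM was 0.56, and over those with at least 1 TPM in every library 11.0. Malt1, a protease that links Syk-coupled receptors to NF-κB, was highest at 1724 ± 583 TPM (SD, n = 3). Syk itself had 716 ± 45.0 TPM and the kinase gene Prkcd 492 ± 6.67 TPM. The lowest was Lat, a scaffold best known from T cells, at 0.37 ± 0.06 TPM. Of the 32 genes, 20 had a higher mean than Tyrobp and 23 a higher mean than Trem2, while in replicate 2 alone Tyrobp at 48.9 TPM was level with the list's median. Plcg1, the relative of Plcg2 and named after its values were seen, had 4.05 ± 3.24 TPM.

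Other receptors that use DAP12 differed widely in level. Of 14 genes, 6 had at least 1 TPM in every library and 1 at least 10 TPM, beside 38.9 and 16.7% of all protein-coding genes. The median was 1.25, 1.26 and 0.855 TPM in replicates 1, 2 and 3. Cd300c2 was highest at 29.9 ± 12.0 TPM, followed by Pilrb1 at 13.5 ± 4.12 TPM and Clec5a at 9.94 ± 2.84 TPM (SD, n = 3). Cd300c2 was the 1 receptor of this list with a higher mean than Trem2, and no receptor had a higher mean than Tyrobp. These places did not hold in every library. In replicate 1 Cd300c2 at 33.5 TPM was above Tyrobp at 23.6 TPM, and Pilrb1 at 17.4 TPM was above Trem2 at 13.7 TPM. Both were the other way round in replicates 2 and 3. In the kallisto layout Pilrb1 had a mean of 17.5 TPM and Trem2 one of 16.5 TPM. The lowest detected was Cd200r3 at 0.11 ± 0.08 TPM, a place it did not keep in the kallisto layout, where it had 3.38 TPM. Siglech, Klra4 and Klra8 had at most 1 count in each library. Several of these genes have close copies, so the division of reads among them is uncertain.

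Ligands and proteases of the receptors differed widely. Adam17, a protease that sheds TREM2 from the surface, had 148 ± 6.78 TPM (SD, n = 3), with all libraries close. Apoe, which encodes a lipoprotein ligand of TREM2, had 42.8, 240.4 and 29.1 TPM in replicates 1, 2 and 3. Hmgb1, reported as a TREM1 ligand, had 5.34, 28.9 and 5.72 TPM. Both stood far higher in replicate 2, the library with the stromal markers and the least starting RNA. The median of the 8576 protein-coding genes was also higher there in TPM, by 0.55 on the log2 scale against the mean of the other libraries. The part of each in the height of Apoe and Hmgb1 was not tested. Pglyrp1, a ligand gene of TREM1 known from neutrophils, had 3, 4 and 1 counts and the lowest mean of the 6 genes. Clu, which encodes a lipoprotein ligand of TREM2 and is named after its values were seen, had 0, 34 and 0 counts, below Pglyrp1 in replicates 1 and 3. In the kallisto layout the means were 1.99 TPM for Pglyrp1 and 0.355 TPM for Clu.

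All listed genes known from lipid-associated macrophages, where TREM2 is a marker, were detected, with more than 3 counts in some library. Itgax passed this limit in replicate 2 only, and 37.2% of all protein-coding genes passed it in no library. Of the 15 listed genes, 13 had at least 1 TPM and 11 at least 10 TPM in every library, beside 38.9 and 16.7% of all protein-coding genes. Their median was 37.3, 81.6 and 29.1 TPM in replicates 1, 2 and 3, again highest in replicate 2. Gpnmb, a glycoprotein gene of lysosome-rich macrophages, was highest at 700 ± 82.9 TPM, followed by the lysosomal protease gene Ctsd at 223 ± 99.7 TPM and Csf1 at 147 ± 58.8 TPM (SD, n = 3). In the kallisto layout Lgals3, which encodes a galectin and is named after its values were seen, came second with 659 TPM, against 122 TPM in the RSEM layout. Itgax was lowest, with 3, 9 and 2 counts.

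**Figure D5:**
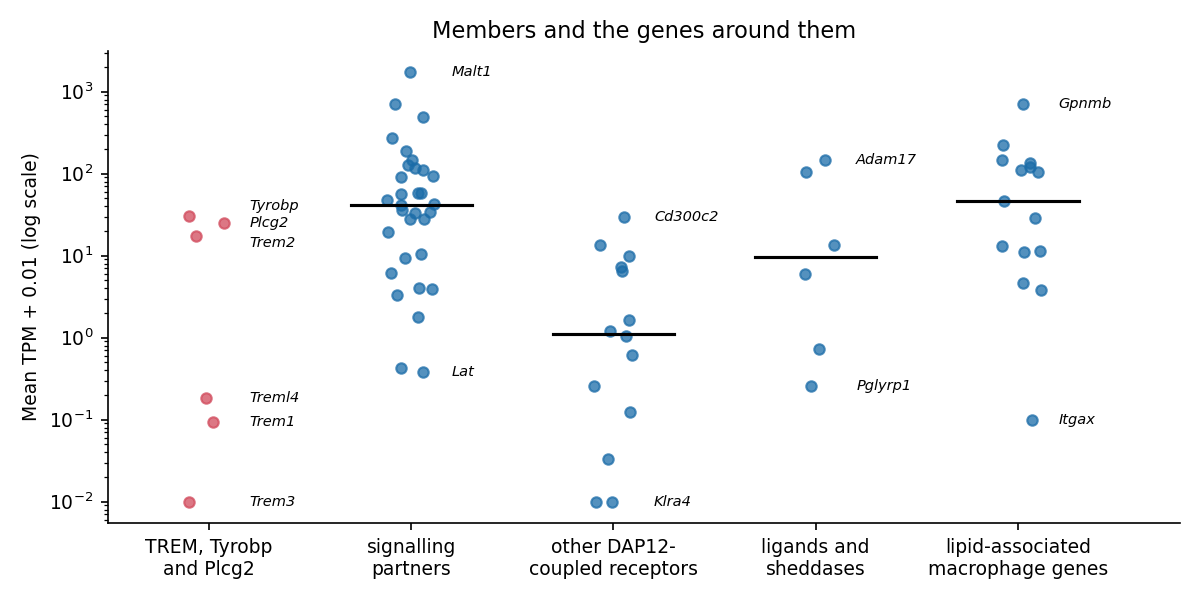
Mean TPM + 0.01 over 3 libraries on a log scale (vertical axis) for the 6 members (red) and 4 lists of genes around them (blue), with 1 point per gene, the highest and the lowest gene of each list named and a black line at the median of the blue lists. Tyrobp, Plcg2 and Trem2 lie between 17.6 and 30.8 TPM, below Malt1 at 1724 TPM and above most other DAP12-coupled receptors.

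Markers of other cells that use these receptors were read beside them. All 8 neutrophil markers had at most 1 count in each library, while 37.2% of all protein-coding genes had at most 3 counts in every library. These markers summed to 2, 1 and 1 counts, in the same libraries where Trem1 had 3, 3 and 4. In the kallisto layout Cxcr2 of that list had a mean of 4.31 TPM, so this holds for the RSEM layout. TREM2 and DAP12 are also known from osteoclasts. Of 8 osteoclast markers, 2 had at least 1 TPM in every library, beside 38.9% of all protein-coding genes. Nfatc1 had 3.96 ± 0.98 TPM, Acp5 1.66 ± 0.61 TPM and Ctsk 0.30, 4.36 and 0.22 TPM in replicates 1, 2 and 3. Mmp9 had 0, 8 and 0 counts, and Calcr, Ocstamp and Dcstamp had at most 1 count in each library of the RSEM layout, while Ocstamp had a mean of 8.14 TPM in the kallisto layout. Of 6 markers of NK and T cells, which also use DAP12, 5 had at most 1 count in each library of the RSEM layout. At most 3 counts in every library was again the state of 37.2% of all protein-coding genes. Cd3d, among these 5 markers, had a mean of 14.4 TPM in the kallisto layout. The other marker, Cd247, had 0.62, 0.92 and 0.45 TPM in replicates 1, 2 and 3. Of 5 dendritic cell markers, 0 had at least 1 TPM in every library of the RSEM layout, beside 38.9% of all protein-coding genes. Zbtb46 was the highest of them at 0.43 ± 0.22 TPM (SD, n = 3).

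Each transcribed member had genes with a closely similar profile, measured as the largest absolute difference in log2(TPM + 1) over the 3 libraries. For Tyrobp these were Mast3 (0.05), the integrin gene Itgb2 (0.12) and Ap2a1 (0.14). For Trem2 they were Nbr1 (0.04), Tsc2 (0.05) and Pdhb (0.07). For Plcg2 they were Tom1l2 (0.08), Gps2 (0.10) and Tnni3 (0.11). With 3 libraries, such likeness describes level and the height of replicate 2 only. Mast3, for example, had 23.9, 49.9 and 19.1 TPM, beside 23.6, 48.9 and 19.8 TPM for Tyrobp.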

How the data were processed

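Chromatin-associated RNA was sequenced in 3 libraries after removal of ribosomal RNA. The authors deposited expected counts and TPM values, with posterior-mean TPM and its bounds, per gene and per transcript in the RSEM layout, and estimated counts and TPM per transcript in the kallisto layout. Annotation was GENCODE M21 on mm10, per the file headers and notes. The strand setting, the aligner and its version are not given in the sources. Genes were matched by identifier. Rows naming no gene held 1.94, 0.269 and 0.386% of counts in replicates 1, 2 and 3 and were left out.

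The members and lists were chosen with earlier results of these data known. Named genes were all members, the 3 highest, the lowest detected and the undetected genes (at most 3 counts in every library) of each list, genes within 50 kb of a member, and the 3 most alike in profile. Expected counts were rounded to whole numbers for CPM with edgeR 4.0.16 (TMM factors 1.01, 1.12 and 0.883) or DESeq2 1.42.0 size factors. Pairs were tested by exact sign flips and isoform classes with limma 3.58.1 (pseudocount 0.1, adjusted p under 0.05). The limma fit was also run on simulated data, and no statement here rests on that run. Python 3.11.15 and R 4.3.3 were used.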

Additional observations from a re-analysis of the deposited data

How the results depend on the processing

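Of 120 alternative values of differences between members, 7 reversed, and of 38 alternative levels, 10 moved by more than the spread between libraries. Rescaling TPM over protein-coding genes, which held 26.8, 35.0 and 30.0% of TPM in replicates 1, 2 and 3, gave 97.8 for Tyrobp, 56.2 for Trem2, 82.1 for Plcg2, 0.274 for Trem1 and 0.596 for Treml4. The kallisto layout gave 49.4 TPM for Tyrobp and 0.152 TPM for Trem1. Posterior means gave 0.143 TPM for Trem1, 0.0867 TPM for Trem3 and 0.917 TPM for Treml4, and are never 0. Leaving out the length term, by CPM with TMM or DESeq2 scaling, turned Tyrobp minus Trem2 to −1.41 (either scaling), Tyrobp minus Plcg2 to −3.17 (either) and Trem1 minus Treml4 to 0.047 (TMM) and 0.046 (DESeq2), since longer genes yield more counts. Without each replicate in turn Tyrobp minus Plcg2 ranged from −0.071 (without replicate 2) to 0.36 (without replicate 1). The replicate 2 height of Plcg2 turned to −0.31 in CPM (either scaling).

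Genes called towards the retained-intron class numbered 1049, against 1810 in the kallisto layout, and 351 (without replicate 3) to 901 (without replicate 2) with a library left out. Those called towards the protein-coding class numbered 1104, against 2372 on expected counts, and 473 (without replicate 3) to 849 (without replicate 1). The Trem2 ratio was 2.68 in the kallisto layout and 1.31 on expected counts, and −1.35 to −0.88 with a library left out; the cause of the reversal in the kallisto layout was not tested. The median of signalling partners was 56.9 TPM and that of other DAP12-coupled receptors 2.94 TPM in the kallisto layout, where 3 of these receptors reached 10 TPM in every library; this number was 1 to 2 with a library left out, and 2 without replicate 3. Restricting Trem2 to protein-coding isoforms, chosen after seeing the data like the replicate 2 ratios, gave 11.0 TPM. No paired analysis was possible because there is no second group to pair with, and differences between members were already taken within each library.

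Depth limits Trem1, Trem3 and Treml4, whose counts of 0 to 5 cannot show a difference between libraries.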
